A study of Mus musculus with 10 samples.

Results

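The respiratory chain genes described here are the nuclear genes whose symbols begin with Nduf (letters a, b, c, s or v and a number), Sdh (a to d), Uqcr, Cox4 to Cox8, or Atp5. A rule on symbols, set with earlier results of these data known, chose them, and 82 of the 24540 named genes in the count table matched. They comprise 36 genes of complex I, 4 of complex II, 8 of complex III, 18 of complex IV and 16 of complex V. A filter on low counts left 79 of the 82 for testing, so 3 members received no test. Ndufs5 was listed at 0 in all 10 libraries, and Cox6a2 and Cox8b had too few counts.

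Polyadenylated RNA was sequenced from mouse C57BL/6 embryonic stem (ES) cells carrying a construct in which the promoter of the heart transcription factor Nkx2.5 drives puromycin resistance and GFP, and from cells derived from them. The ES group was untreated and kept undifferentiated with LIF. The 4 other groups held cells that had passed through Noggin and BMP4 and were then selected with puromycin, labelled ES-derived cardiomyocytes. They received the vehicle DMSO for 24 h, or TCDD in DMSO at 5 nM for 24, 72 or 96 h. TCDD (2,3,7,8-tetrachlorodibenzo-p-dioxin) is a ligand of the aryl hydrocarbon receptor. All cells therefore share 1 parental line and its construct, each group has 2 libraries, and the sole DMSO group is at 24 h. In the comparisons of 72 h and 96 h of TCDD with DMSO, exposure and time in culture cannot be told apart. Separate cultures for the replicates are not named in the labels, and the p-values therefore weigh differences against the spread of library pairs that may reflect technical variation only.

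The respiratory chain passes electrons from NADH and succinate to oxygen and uses the proton gradient so built to make ATP. Complex I oxidises NADH, complex II oxidises succinate, complex III hands electrons to cytochrome c, complex IV reduces oxygen, and complex V is the ATP synthase. Nuclear genes encode all subunits of complex II and most subunits of the others, with the rest encoded in mitochondrial DNA. Beating heart muscle is dense in mitochondria and uses its own isoforms of several complex IV subunits, whereas cultured ES cells are known to draw strongly on glycolysis. The table used here held 0 of the 26 mitochondrially encoded subunit and RNA symbols looked for, so only the nuclear part is described.

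Library totals ran from 15326612 to 31192459 counts. Some libraries stood apart before any comparison. ES replicate 2 carried a trend of its log2 counts with transcript GC content that spanned 2.9 log2 units, TCDD 24 h replicate 1 spanned 1.51, and the other libraries spanned 0.242 to 1.29. TCDD 72 h replicate 1 had the widest trend with transcript length (2.01 log2 units). ES replicate 2 followed with 1.84 and TCDD 24 h replicate 1 with 1.12, and the others spanned 0.172 to 0.568. Long transcripts lay below short ones in ES replicate 2 (long minus short -1.17) and above them in TCDD 72 h replicate 1 (0.61). TCDD 72 h replicate 1 held 106500 CPM (counts scaled to library size) of the ribosomal RNA gene Rn45s, against 13720 to 48150 CPM elsewhere. The DMSO pair was closest, with a chi-square per gene of 3.228, followed by the TCDD 96 h pair (18.93), whereas the ES, TCDD 24 h and TCDD 72 h pairs reached 196.4, 86.5 and 191.5. Respiratory chain transcripts are short (median 758 bases against 2862 for all genes tested), so the length trend bears on them. Their median GC content was near that of all genes tested (51.60% against 50.97%). The GC trend bears on members by their own GC content, from 36.72% to 61.12%. The label of the derived cells was also checked. The 12 cardiomyocyte markers summed to 25.12 to 29.78 CPM in ES cells and to 48.56 to 53.14 CPM in DMSO cells. Of the 11 tested, Myh6, Myh7, Nppa and Tnnt2 rose in DMSO cells and 0 fell by edgeR's test. Their levels there were 8.95 ± 1.07, 9.55 ± 0.326, 0.558 ± 0.248 and 0.527 ± 0.269 CPM (SD, n = 2). Of the 11, 8 had log2 fold changes above 0 and 3 below 0, namely Gata4 (-0.62), Actn2 (-0.32) and Ryr2 (-0.10). Nkx2-5, the gene of the selection promoter, measured 1.03 ± 0.0303 CPM in DMSO cells (SD, n = 2). Its log2 fold change of 0.69 did not pass (edgeR adjusted p = 0.275). The 10 pluripotent cell markers still summed to 4198 to 4400 CPM in DMSO cells, against 6601 to 8735 CPM in ES cells. By edgeR's test 5 of the 10 fell and 1 rose (15.5% of all genes tested each way). Log2 fold changes were above 0 in 3, Dppa3 (4.32), Sox2 (0.13) and Zfp42 (0.04), and below 0 in 7. Dppa3, which rose, measured 5.85 and 4.65 CPM in ES cells and 109 and 101 CPM in DMSO cells. The DMSO and TCDD groups are therefore called derived cells here.

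In ES cells the respiratory chain genes together took 1.573% and 2.054% of all counts in replicates 1 and 2, and in DMSO cells 1.276% and 1.196%. The share was 1.521% and 1.304% at 24 h of TCDD, 0.944% and 1.373% at 72 h, and 1.384% and 1.325% at 96 h. The highest share was that of ES replicate 2, and the lowest that of TCDD 72 h replicate 1. Complex V supplied the most counts in all 10 libraries, from 0.4267% in TCDD 72 h replicate 1 to 0.9542% in ES replicate 2. In bulk RNA a smaller share of cells that express a gene and less of its RNA per cell cannot be told apart.

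**Figure D1:**
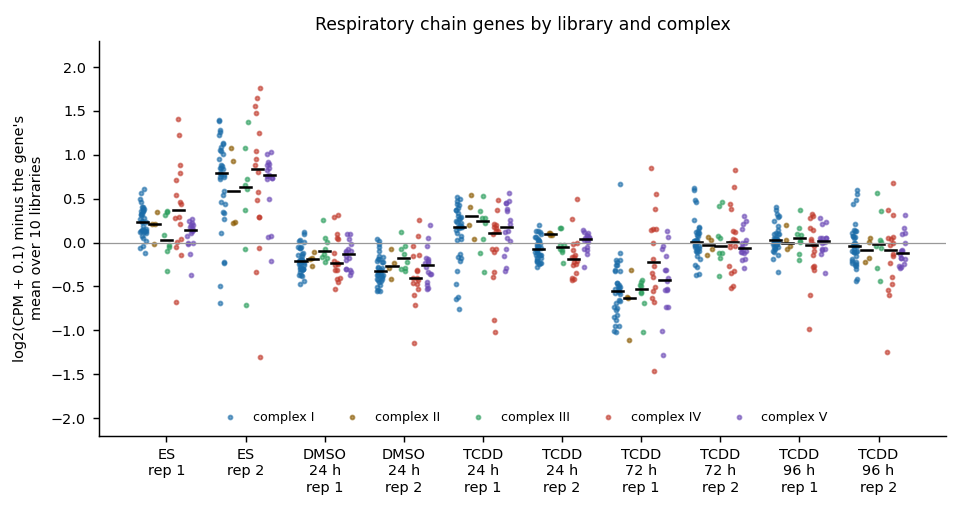
Each point is 1 of the 79 tested respiratory chain genes in 1 library, as log2(CPM + 0.1) minus that gene's mean over the 10 libraries (y axis), by library (x axis) and complex (colour), with a bar at the median of each complex. The medians of all 5 complexes sit above 0 in ES replicate 2 and below 0 in both DMSO libraries and in TCDD 72 h replicate 1.

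Levels between genes were compared as CPM per kilobase of transcript in DMSO cells. Atp5b, the catalytic beta subunit of the ATP synthase, had the highest level of all members (1132 CPM per kilobase), followed by Cox4i1 (650.0) and Atp5a1 (535.4), the alpha subunit. The highest members of the other complexes were Uqcr10, a small subunit of complex III (236.0), Ndufa7, an accessory subunit of complex I (214.5), and Sdhd, the cytochrome b anchor of complex II (102.4). The lowest tested members were the testis isoforms Cox7b2 (0.201) and Cox8c (0.252). Atp5s, a coupling factor homologue that is not a core ATP synthase subunit, was the lowest in complex V at 3.57.

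Comparing DMSO cells with ES cells asks how expression differs between the parental line and the differentiated controls. In this comparison 34 of the 79 tested members were lower in DMSO cells and 0 were higher, by edgeR's quasi-likelihood test on all 10 libraries with Benjamini-Hochberg adjusted p under 0.05. Among all 15175 genes tested, 15.5% were lower and 15.5% were higher. The members' median log2 fold change was -0.71, beside 0.01 for all genes tested. By complex, 17 of 35 fell in complex I, 1 of 4 in complex II, 2 of 8 in complex III, 9 of 16 in complex IV and 5 of 16 in complex V, with median log2 fold changes of -0.76, -0.65, -0.58, -0.97 and -0.70. The size of these counts, and whether the share of members exceeded that of all genes, rested on the libraries in the fit. Without ES replicate 2, 6 of 79 members (7.59%) fell and 0 rose, below the 9.89% of all genes tested that fell, and the median was -0.44. Without DMSO replicate 1 and without DMSO replicate 2, 2 members (2.53%) fell each time, Cox5a and Cox6b2, below the 4.43% and 4.27% of all genes tested. With only the 4 libraries compared, 4 of 78 members (5.13%) fell, below the 6.94% of all genes tested. At an adjusted p under 0.01 with all libraries, 3 members fell, beside 6.88% of all genes tested. Without ES replicate 1, 53 members fell and 1 rose (22.7% of all genes tested fell).

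**Figure D2:**
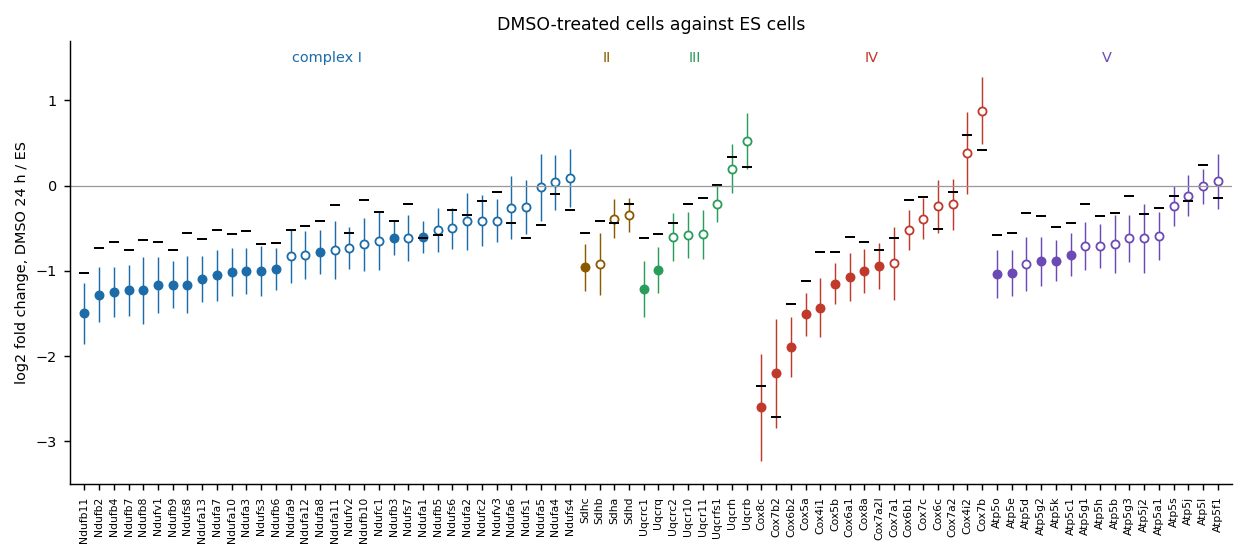
Log2 fold change of DMSO cells over ES cells (y axis) for the tested members reported here (x axis), grouped by complex, with circles from all 10 libraries, bars of 1 SE, and black dashes from the fit without ES replicate 2. Filled circles are the 34 members with an adjusted p under 0.05, all below 0, and most dashes lie nearer to 0 than their circles.

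Complex IV, cytochrome c oxidase, held the members with the largest falls. Cox5a, a structural subunit (chr9:57521231-57532426, mm10), measured 382 and 613 CPM in ES replicates 1 and 2 and 185 and 165 CPM in DMSO replicates 1 and 2. The pairs did not overlap, and its log2 fold change was -1.51 ± 0.25 (SE, edgeR adjusted p = 0.00257). Cox6b2, the testis isoform of the subunit that joins the oxidase dimer (chr7:4751791-4753094), measured 41.9 and 77.2 CPM in ES cells and 17.1 and 14.9 CPM in DMSO cells, and fell by 1.89 ± 0.35 on the log2 scale (edgeR adjusted p = 0.00417). These 2 members passed the threshold in 23 of 23 alternative fits, including each fit that left out a library. Cox5b, which binds zinc near the matrix face (chr1:36691486-36693388), measured 196 and 309 CPM in ES cells and 117 and 111 CPM in DMSO cells, a log2 fold change of -1.15 ± 0.24 (edgeR adjusted p = 0.00802).

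Cox4i1, the ubiquitous isoform of subunit 4 (chr8:120668319-120674209), showed how far ES replicate 2 stood from its pair. It measured 841 CPM in ES replicate 1 and 1803 CPM in ES replicate 2, against 518 and 464 CPM in DMSO cells. Its log2 fold change was -1.43 ± 0.35 (edgeR adjusted p = 0.0141) with all libraries, and it did not pass without ES replicate 2. Cox6a1, Cox8a and Cox7a2l also fell, by 1.07, 1.00 and 0.94 on the log2 scale. Cox6a1 and Cox8a are the ubiquitous isoforms of their subunits, and Cox7a2l helps complexes III and IV associate. Cox8c and Cox7b2 passed as well, but at 0.0377 to 0.931 CPM in single libraries.

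The other members of complex IV did not pass. Cox7b (chrX:106015699-106022450), a small subunit of 41.96% GC, measured 83.8 and 37.6 CPM in ES cells and 113 and 110 CPM in DMSO cells, with a log2 fold change of 0.88 ± 0.39 (edgeR adjusted p = 0.115). ES replicate 2 was the low library for this gene and the high library for Cox4i1, whose GC content is 57.81%. The log2 fold changes of Cox6b1, Cox7c, Cox6c and Cox7a2 lay between -0.52 and -0.22.

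**Figure D3:**
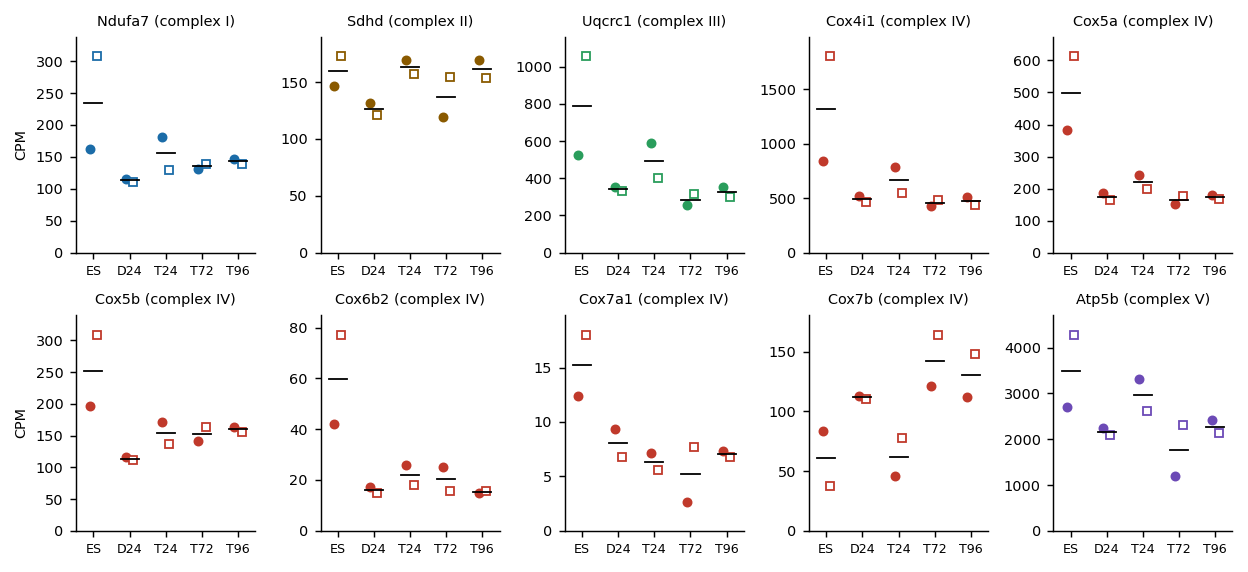
CPM (y axis, from 0) in each library for 10 members, with replicate 1 as a filled circle, replicate 2 as an open square and the group mean as a line; D24 is DMSO at 24 h, and T24, T72 and T96 are TCDD at 24, 72 and 96 h. Cox5a, Cox5b and Cox6b2 are higher in both ES libraries than in both DMSO libraries, and Cox7b is lower in both ES libraries.

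In complex I the largest falls were in Ndufb genes, which encode accessory subunits of the membrane arm. Ndufb11 (chrX:20615325-20617564) measured 95.4 and 168 CPM in ES cells and 49.5 and 43.9 CPM in DMSO cells, a log2 fold change of -1.50 ± 0.36 (edgeR adjusted p = 0.0139). Ndufb2, Ndufb4, Ndufb7, Ndufb8 and Ndufb9, from the same arm, fell by 1.28, 1.25, 1.23, 1.23 and 1.16 on the log2 scale. Ndufv1, the core subunit that binds FMN, and Ndufs8, a core subunit with iron-sulphur clusters, fell by 1.17 and 1.16. Ndufa7, the member with the highest level per length in complex I, measured 162 and 307 CPM in ES cells and 115 and 111 CPM in DMSO cells and fell by 1.05 ± 0.30 (edgeR adjusted p = 0.0263). The core subunit gene Ndufs1 did not pass, with a log2 fold change of -0.25. Ndufa4, named for complex I but found with complex IV in later work, measured 127 and 103 CPM in ES cells and 123 and 112 CPM in DMSO cells, so the pairs overlapped. Without ES replicate 2, Ndufb4 and Ndufb9 were the members of complex I past the threshold.

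In complex II, Sdhc, which anchors the complex in the membrane, fell by 0.96 ± 0.28 on the log2 scale (edgeR adjusted p = 0.0312), from 130 and 214 CPM in ES cells to 92.9 and 84.2 CPM in DMSO cells. Sdha, the flavoprotein, measured 362 and 335 CPM in ES cells and 263 and 270 CPM in DMSO cells, and its log2 fold change of -0.39 did not pass, nor did that of Sdhd (-0.34). In complex III the core subunit gene Uqcrc1 (chr9:108936647-108949641) measured 524 and 1055 CPM in ES cells and 351 and 330 CPM in DMSO cells. It fell by 1.21 ± 0.33 (edgeR adjusted p = 0.0244), and Uqcrq, a small subunit, by 0.99. Without ES replicate 2 the log2 fold changes of Sdhc, Uqcrc1 and Uqcrq were -0.55, -0.62 and -0.57. Uqcr10 measured 120 and 187 CPM in ES cells and 108 and 96.9 CPM in DMSO cells and did not pass (-0.58). Uqcrb, a small subunit, and Uqcrh, the hinge protein, had log2 fold changes of 0.52 and 0.20 that did not pass either. Uqcrfs1, the Rieske iron-sulphur protein, measured 114 and 151 CPM in ES cells and 118 and 112 CPM in DMSO cells, so the pairs overlapped.

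In complex V, Atp5o, the stalk subunit that confers sensitivity to oligomycin, measured 302 and 528 CPM in ES cells and 212 and 192 CPM in DMSO cells and fell by 1.04 ± 0.28 (edgeR adjusted p = 0.0236). Atp5e, the epsilon subunit, Atp5g2, which encodes the membrane ring subunit c, Atp5k and the gamma subunit gene Atp5c1 fell by 1.02, 0.89, 0.88 and 0.81. Without ES replicate 2 the log2 fold changes of Atp5o, Atp5e, Atp5g2, Atp5k and Atp5c1 were -0.58, -0.56, -0.36, -0.49 and -0.44. Atp5b measured 2712 and 4286 CPM in ES cells and 2242 and 2095 CPM in DMSO cells. Its log2 fold change of -0.69 ± 0.34 did not pass (edgeR adjusted p = 0.149), nor did that of Atp5a1 (-0.59). Atp5f1 and Atp5l, of the peripheral stalk and the membrane part, were near equal, at 0.05 and -0.01.

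GC content moved with these differences. Of the 79 members, 65 were higher in ES replicate 2 than in ES replicate 1, including 47 of the 50 at or above 50% GC and 18 of the 29 below. Across the 79 members the difference between ES replicates (1 minus 2) had a Pearson correlation of -0.65 with GC content, close to the -0.70 across all genes tested; in the DMSO pair it was -0.01. The points share the same libraries, so this is a description. The median log2 fold change of DMSO cells over ES cells was -0.88 in the GC-rich members and -0.41 in the others. Without ES replicate 2 the medians were -0.45 and -0.44.

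**Figure D4:**
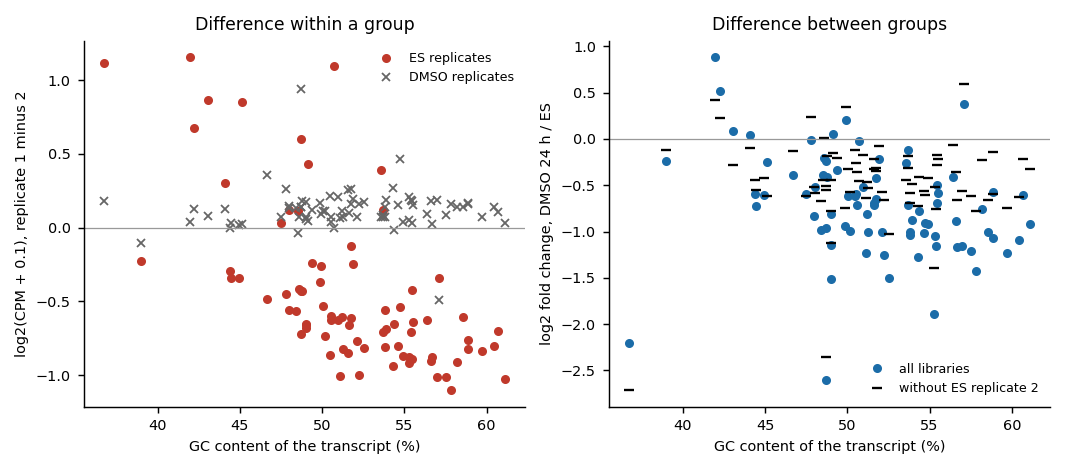
Left, the difference between replicates 1 and 2 in log2(CPM + 0.1) for each tested member (y axis) against the GC content of its transcript in % (x axis), in ES cells (circles) and DMSO cells (crosses). Right, the log2 fold change of DMSO cells over ES cells against the same axis, from all libraries (circles) and without ES replicate 2 (dashes). The circles at or above 50% GC have a median of -0.88 and the others -0.41, and the dashes -0.45 and -0.44.

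When a GC trend per library was taken out with an offset, 36 of 79 members fell and 0 rose, of which 33 were among the 34 (18.4% of all genes tested fell), with a median of -0.53. With both GC and length trends taken out, 30 fell and 2 rose, Cox7b and Uqcrh (19.5% of all genes tested fell), with a median of -0.30. When the 3 libraries that stood apart (replicate 2 of ES cells, and replicate 1 of both 24 h and 72 h of TCDD) were all left out, 56 fell and 1 rose, Uqcrh (26.5% of all genes tested fell), with a median of -0.45. In that fit the spread came from the DMSO and TCDD 96 h pairs alone, and the lone ES library was assumed to vary like them. Over these fits, the fit with all libraries and those without 1 ES or DMSO library, the medians over members lay between -1.06 and -0.30.

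Isoforms that mark heart muscle stayed low in the derived cells. Cox6a2, the muscle isoform of subunit 6A, had 8 and 7 counts in the ES libraries, 1 and 1 in the DMSO libraries and 1 in all 6 TCDD libraries together. It made up 0.128% ± 0.0532 (SD, n = 2) of the counts of Cox6a1 and Cox6a2 in ES cells and 0.0284% ± 0.0110 in DMSO cells. Cox8b, the muscle isoform of subunit 8, was listed at 0 in ES and DMSO cells and had 2 counts in 1 library each of 72 h and 96 h of TCDD. In DMSO replicate 2, the shallower of the pair, a count of 0 allows up to 0.121% of the counts of Cox8a and Cox8b. Cox7a1, the muscle isoform of subunit 7A, measured 12.4 and 18.0 CPM in ES cells and 9.35 and 6.74 CPM in DMSO cells, and its log2 fold change of -0.91 ± 0.43 did not pass (edgeR adjusted p = 0.131). It was 8.41% ± 1.11 of the counts of Cox7a1 and Cox7a2 in ES cells, 5.37% ± 0.686 in DMSO cells and 3.77% ± 0.241 at 96 h of TCDD. Cox4i2, the lung and hypoxia isoform of subunit 4, was 0.0326% to 0.338% of the counts of both subunit 4 genes in single libraries. The limit for a count of 0 covers counting error only, and each SD is the spread of 2 libraries.

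A set of promoters is shown to give examples of motifs known from respiratory chain promoters, each of which was present in a minority of the members. RefSeq promoters (GRCm38.p6, 250 bases before to 50 after the start) matched 68 of the 82 members. The motifs searched on both strands were GCGCATGCG of nuclear respiratory factor 1 (NRF1), CCGGAAG of ETS factors such as GABPA, AAGATGG of YY1, AAGGTCA of the oestrogen-related receptors (ERR) and TNGCGTG of the aryl hydrocarbon receptor (AHR). The NRF1 motif is nearly its own reverse complement, so overlapping matches on both strands count as 1 site. The genes below are Cox6a1 and Uqcrc1 with an NRF1 match, Cox8a with a pair of ETS matches, Ndufb4 with an ERR match, all lower in DMSO cells, and Cox7c, which did not pass, with a YY1 match beside the start. Sequences read 5′ to 3′ along the gene's strand, and capitals mark the motif matches, which in Cox6a1 include an ETS site nearer the start.
Cox6a1, chr5:115348909-115349208, minus strand: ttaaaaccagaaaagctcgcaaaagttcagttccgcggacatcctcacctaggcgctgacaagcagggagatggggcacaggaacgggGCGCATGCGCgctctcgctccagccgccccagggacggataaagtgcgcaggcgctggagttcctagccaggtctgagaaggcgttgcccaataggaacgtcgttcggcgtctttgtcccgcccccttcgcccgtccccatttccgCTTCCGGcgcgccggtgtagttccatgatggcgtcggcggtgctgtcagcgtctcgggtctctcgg
Uqcrc1, chr9:108936398-108936697, plus strand: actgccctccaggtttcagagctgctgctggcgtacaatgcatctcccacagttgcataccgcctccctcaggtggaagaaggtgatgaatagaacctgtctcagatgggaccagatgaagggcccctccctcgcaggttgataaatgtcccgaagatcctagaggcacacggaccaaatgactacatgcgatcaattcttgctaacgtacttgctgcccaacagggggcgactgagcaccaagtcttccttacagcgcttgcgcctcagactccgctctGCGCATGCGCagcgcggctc
Cox8a, chr19:7217567-7217866, minus strand: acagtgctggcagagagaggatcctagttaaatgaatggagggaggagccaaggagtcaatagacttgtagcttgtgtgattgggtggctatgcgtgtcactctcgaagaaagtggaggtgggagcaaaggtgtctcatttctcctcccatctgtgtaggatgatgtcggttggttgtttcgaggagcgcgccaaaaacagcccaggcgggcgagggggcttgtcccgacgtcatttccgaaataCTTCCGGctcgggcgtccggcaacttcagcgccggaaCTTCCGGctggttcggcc
Ndufb4, chr16:37654319-37654618, minus strand: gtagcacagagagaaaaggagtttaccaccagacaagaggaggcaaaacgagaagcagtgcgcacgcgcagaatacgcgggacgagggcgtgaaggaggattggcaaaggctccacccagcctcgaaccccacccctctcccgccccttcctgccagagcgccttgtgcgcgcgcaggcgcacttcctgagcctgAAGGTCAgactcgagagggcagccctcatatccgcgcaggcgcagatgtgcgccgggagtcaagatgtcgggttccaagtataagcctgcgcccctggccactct
Cox7c, chr13:86046746-86047045, minus strand: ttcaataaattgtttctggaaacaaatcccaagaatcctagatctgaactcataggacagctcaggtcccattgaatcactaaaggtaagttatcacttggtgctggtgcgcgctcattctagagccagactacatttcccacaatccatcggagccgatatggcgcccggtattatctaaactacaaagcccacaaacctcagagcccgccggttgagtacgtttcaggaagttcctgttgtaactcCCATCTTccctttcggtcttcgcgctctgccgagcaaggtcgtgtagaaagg

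The NRF1 motif was in 8 of the 68 member promoters (11.8%), beside 3.75% of promoters of all genes tested. The ETS motif was in 23.5% beside 18.1%, YY1 in 16.2% beside 7.82%, ERR in 11.8% beside 4.11% and AHR in 10.3% beside 9.02%. Among the 29 matched members that were lower in DMSO cells, 5 held NRF1, 8 ETS, 2 YY1, 4 ERR and 3 AHR motifs. Among the 37 matched members that were tested and did not pass, 3 held NRF1, 8 ETS, 9 YY1, 3 ERR and 4 AHR motifs. A match is a string of letters in this window and was not tested for binding.

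Of 25 tested regulators of mitochondrial gene expression, 3 rose and 3 fell between ES and DMSO cells (12% each way, under the 15.5% each way of all genes tested). Esrrb, an ERR family receptor that also serves the pluripotent network, fell from 855 and 1211 CPM to 248 and 238 CPM (log2 fold change -2.09 ± 0.24, edgeR adjusted p = 0.000344). Myc, which is known to act on many biosynthetic genes, rose from 15.4 and 18.7 CPM to 48.9 and 52.6 CPM, and Ppargc1b, a coactivator of ERR receptors, fell from 4.43 and 4.56 CPM to 1.77 and 1.91 CPM. Perm1, a muscle regulator of this programme, rose to 1.41 and 1.96 CPM in DMSO cells. Ppargc1a, the coactivator prominent in heart, was at 0 to 0.190 CPM in single libraries. Tfam, which packages and transcribes mitochondrial DNA, measured 81.8 and 42.4 CPM in ES cells and 103 and 106 CPM in DMSO cells, and did not pass.

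Other genes of mitochondrial respiration were counted from lists that were also chosen with earlier results of these data known. Of 47 assembly factors tested, 8 fell (17%, near the 15.5% of all genes tested) and 1 rose, with a median log2 fold change of -0.39. Without ES replicate 2 this median was -0.24. Ndufaf7, a methyltransferase for complex I assembly, fell by 1.21 ± 0.22 (edgeR adjusted p = 0.00365), and Nubpl and Acad9, also complex I factors, fell by 1.03 and 0.73. Of 18 citric acid cycle genes, 6 fell (33.3%) and 0 rose, with a median of -0.39 that became -0.20 without ES replicate 2. Idh2, the NADP-linked isocitrate dehydrogenase of mitochondria, fell from 306 and 502 CPM to 113 and 111 CPM, a log2 fold change of -1.85 ± 0.27 (edgeR adjusted p = 0.00135), and Idh3g and Ogdh, of the NAD-linked isocitrate and the oxoglutarate dehydrogenases, fell by 1.21 and 0.88. Of 7 subunits and partners outside the naming rule, Atpif1, the inhibitor of the ATP synthase, fell by 1.15. Cycs, cytochrome c, rose by 0.94 ± 0.29 (edgeR adjusted p = 0.0371) with all libraries and measured -0.07 with the GC offset. Ndufa4l2 also rose, to 0.856 and 0.574 CPM in DMSO cells.

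Ribosomal protein genes, which also encode short transcripts, were counted beside the respiratory chain. Of 72 cytoplasmic ribosomal genes tested, 13 fell (18.1%, beside 15.5% of all genes tested) and 0 rose, with a median of -0.62 that became -0.27 without ES replicate 2, when 1 fell. Of 78 mitochondrial ribosomal genes, 11 fell (14.1%) and 1 rose, with a median of -0.39 that became -0.06, when 2 fell and 1 rose. Rpl13 fell by 1.12, Rps28 by 1.19 and Mrps9 by 0.74, while Mrpl35 rose by 1.02. No test of the difference between these lists and the respiratory chain genes was made.

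The comparisons of TCDD with DMSO ask how expression after 24, 72 and 96 h of TCDD differed from that in DMSO cells at 24 h. At 72 and 96 h the groups also differ in time in culture. With all libraries, 0 of 79 members passed at 24, 72 or 96 h by edgeR's quasi-likelihood test, and DESeq2 and limma-voom also called 0 at each time. Among all genes tested, 0% passed at 24 h, 0.0461% at 72 h and 0.0857% at 96 h. At an unadjusted p under 0.05 there were 2 members at 24 h, 0 at 72 h and 0 at 96 h. The members' medians were 0.34, 0.03 and 0.23 on the log2 scale, beside 0.02, 0.03 and 0.01 for all genes tested. These 3 comparisons share the DMSO libraries.

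**Figure D5:**
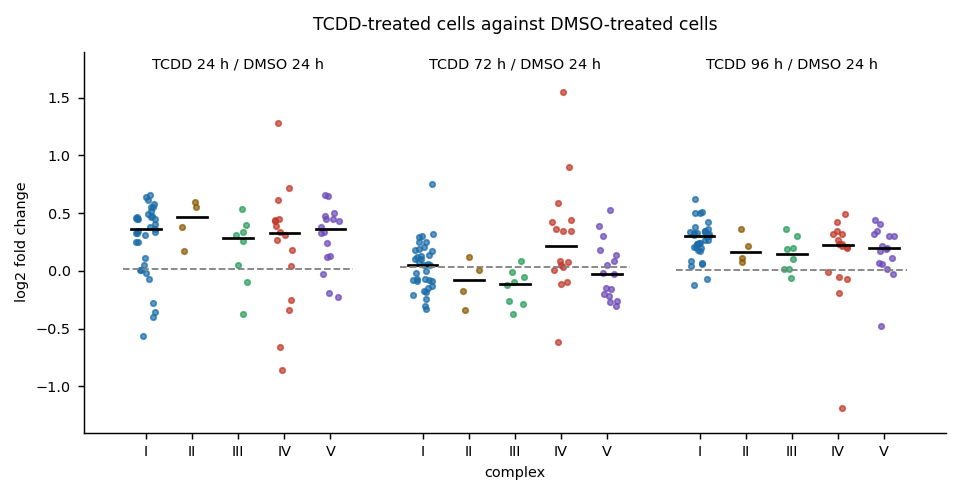
Log2 fold change over DMSO cells (y axis) of each tested member by complex (x axis) after 24, 72 and 96 h of TCDD, from all libraries, with a bar at the median of each complex and a dashed line at the median of all genes tested. At 24 and 96 h all 5 bars lie above the dashed line, and at 72 h they lie on both sides of it.

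At 24 h of TCDD, 64 of 79 members had a log2 fold change above 0, with medians from 0.28 in complex III to 0.47 in complex II. Among all 15175 genes tested, 7847 lay above 0, as did 56 of 72 cytoplasmic and 67 of 78 mitochondrial ribosomal genes. The median was 0.42 in members at or above 50% GC and 0.12 in the others, and 0.17 and 0.25 with the GC offset. Ndufa7 measured 181 and 130 CPM, against 115 and 111 CPM in DMSO cells, and Atp5b 3312 and 2625 CPM, against 2242 and 2095 CPM. TCDD 24 h replicate 1, with the GC trend, was the higher library in 57 of the 79 members. Cox7b, at low GC, measured 45.5 and 78.0 CPM, below both DMSO libraries, with a log2 fold change of -0.86 ± 0.39 (edgeR adjusted p = 0.521). Without that library 0 passed and the median was 0.20. With the 3 libraries that stood apart left out, 4 members rose (2.71% of all genes tested rose), Ndufa10, Atp5g2, Sdhc and Atp5k, by 0.46, 0.46, 0.43 and 0.43. In the same fit Cox6c, a small complex IV subunit, fell by 0.44 (2.26% of all genes tested fell). That fit keeps 1 library at 24 h, which is assumed to vary like the DMSO and TCDD 96 h pairs, whereas the 24 h pair itself differed more (chi-square per gene of 86.5 against 3.228 and 18.93).

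At 72 h of TCDD, replicate 1 was the lower library in 70 of the 79 members. Atp5b measured 1200 and 2311 CPM, Ndufa7 130.5 and 139.5 CPM and Cox7a1 2.67 and 7.71 CPM. Ndufb8, a membrane arm subunit of complex I, went the other way, at 231 and 114 CPM. The members' median was 0.27 without replicate 1 and -0.29 without replicate 2, so its sign rested on which library was kept. With the 3 libraries that stood apart left out, 21 members rose and 0 fell (6.17% of all genes tested rose and 6.61% fell), with 13 of the 21 in complex I and 5 in complex IV. The 72 h group is then 1 library, judged by the spread of the DMSO and TCDD 96 h pairs, although the 72 h pair's own chi-square per gene was 191.5. Ndufa2, Ndufa5 and Ndufa4 rose by 0.67, 0.65 and 0.60, and Cox5b rose by 0.50.

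At 96 h of TCDD the pair was close, and 69 of 79 members had a log2 fold change above 0 without passing. Among all 15175 genes tested, 7710 lay above 0. With all libraries, the medians were 0.22 in members at or above 50% GC and 0.24 in the others. Taking out both GC and length trends gave 0.08 and 0.18. Long minus short was 0.22 and 0.4 in the DMSO libraries and -0.02 and 0.16 in the TCDD 96 h libraries. The part of the length trend in the fits below was not tested. When only the 4 libraries compared were fitted, 33 of 77 members rose and 1 fell, while 14.8% of all genes tested rose and 15.1% fell. In that fit 19 of 35 rose in complex I, 1 of 4 in complex II, 2 of 8 in complex III, 5 of 14 in complex IV and 6 of 16 in complex V, with a median of 0.21. With the 3 libraries that stood apart left out, 34 rose and 1 fell (14.2% of all genes tested rose and 14.4% fell), and 33 of those that rose also rose in the fit of 4 libraries. Both of these fits take their spread only from the closest pairs, and the fit with all libraries pools it with that of the other pairs.

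The members behind the count at 96 h moved by small amounts. Ndufa2, an accessory subunit of complex I, measured 48.1 and 43.1 CPM in DMSO cells and 68.3 and 71.5 CPM at 96 h, so the pairs did not overlap. Its log2 fold change was 0.60 ± 0.08 with the 4 libraries (edgeR adjusted p = 0.000822) and 0.62 ± 0.33 with all libraries (edgeR adjusted p = 0.548). Ndufa4 measured 123 and 112 CPM in DMSO cells and 159 and 176 CPM at 96 h, and Cox5b 117 and 111 CPM in DMSO cells and 164 and 156 CPM at 96 h. With the 4 libraries they rose by 0.49 and 0.48. Ndufb7, Atp5e, Ndufs6 and Cox7a2l rose by 0.48, 0.42, 0.41 and 0.40. Atp5s fell by 0.49, from 5.10 and 5.50 CPM to 3.72 and 3.88 CPM.

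Other lists differed from each other at 96 h in the fit of 4 libraries, where 14.8% of all genes tested rose and 15.1% fell. Of 72 cytoplasmic ribosomal genes, 52 rose and 0 fell, with a median of 0.30. Of 78 mitochondrial ribosomal genes 13 rose (16.7%, near the share of all genes) and 2 fell, with a median of 0.10. Of 47 assembly factors 3 rose and 3 fell. Of 18 citric acid cycle genes 2 rose and 3 fell, and of 25 biogenesis regulators 2 rose and 7 fell. Of 10 pluripotent cell markers 0 rose and 9 fell in that fit, and their summed level was 2829 to 3018 CPM at 96 h against 4198 to 4400 CPM in DMSO cells. The part of these shifts in the members' values was not tested.

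Between TCDD times, with all libraries, 0 of 79 members passed from 24 to 72 h, from 24 to 96 h or from 72 to 96 h, and 0% of all genes tested passed in each. The medians were -0.27, -0.11 and 0.22, and 8, 5 and 1 members had an unadjusted p under 0.05 by edgeR, while DESeq2 and limma-voom called 0. With the 3 libraries that stood apart left out, 8 members rose from 24 to 72 h (2.05% of all genes tested rose). From 24 to 96 h 8 rose and 1 fell (4.64% of all genes tested rose and 7.24% fell). These fits hold 1 library at 24 h and 1 at 72 h, with the spread taken from the DMSO and TCDD 96 h pairs, which were closer than the 24 h and 72 h pairs. Cox7b, Cox6c, Ndufa4 and Ndufa5 rose by 1.05, 0.82, 0.82 and 0.82 on the log2 scale from 24 to 72 h, and by 0.72, 0.74, 0.71 and 0.66 from 24 to 96 h. Both comparisons share the TCDD 24 h library. Ndufb4 fell by 0.42 from 24 to 96 h. Cox6c measured 104 CPM in the TCDD 24 h library kept, 186 CPM in the 72 h library kept, and 173 and 179 CPM at 96 h.

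Ndufs5, an accessory subunit of complex I (chr4:123712709-123718186), was the sole member listed at 0 throughout. Its 0 counts allow at most 0.0962 to 0.196 CPM per library. Ndufa7, of the same complex, had from 111 to 307 CPM in single libraries. How counting treated reads that fit several places in the genome is not given in the sources at hand, and levels of members with near-identical copies are therefore uncertain.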

How the data were processed

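The 82 members and all gene lists were chosen with earlier results of these data known. The authors deposited raw whole-number counts for each gene, without normalization. Per the labels' protocols, RNA was extracted with TRIzol, poly(A) RNA was selected, and stranded dUTP libraries were read as single reads; bcl2fastq, CASAVA 1.8, TopHat, edgeR and the build mm10 appear in the submitters' processing notes. Which tool counted the reads, whether it used strand, and with which annotation, is not stated in those sources. An unnamed row, at most 0.00285% of a library's counts, was left out.

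Counts of all 10 libraries were tested with edgeR 4.0.16 (R 4.3.3), with TMM scaling, the default expression filter (15175 genes tested), 1 mean per group and 5 residual degrees of freedom, in 7 comparisons; p-values were two-sided and adjusted over all genes tested. CPM use TMM-scaled library sizes. Alternatives were other scalings and filters, DESeq2 1.42.0, limma-voom (limma 3.58.1), GC and length offsets (loess span 0.3), the replicate block, other thresholds and left-out libraries. GC and length come from GENCODE M21 transcripts. On simulated counts for TCDD 96 h against DMSO (14934 genes), 13 of 100 genes changed 2-fold and 89 of 100 changed 4-fold were recovered, with 7 false calls.

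Named members are the 12 largest called changes each way among members that average 5 CPM or more, the isoform genes, the highest member per length of each complex and up to 3 genes of each other list; other members are named to complete a complex or as the calls of an alternative, and were chosen after their values were seen. Some results are not reported here.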

Additional observations from a re-analysis of the deposited data

How the results depend on the processing

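For DMSO against ES cells, the 34 members past the threshold became 57 without the 3 libraries that stood apart, 4 with only the libraries compared, and 3 at an adjusted p under 0.01, and ran from 2 to 54 when each library was left out in turn. The cause was not tested. Other scalings, filters and tools gave 30 to 39. With the replicate number as a replicate block 26 members passed, all among the 34; same-numbered libraries deviated with correlations from -0.75 to 0.45, so the numbers do not pair the samples. Without the 3 libraries the counts of 0 became 5 (TCDD 24 h over DMSO), 21 (72 h), 35 (96 h), 8 (72 h over 24 h) and 9 (96 h over 24 h). With only the libraries compared they became 34 (96 h over DMSO) and 2 (72 h over 24 h). Leaving out each library gave 0 to 4 for 72 h over 24 h and 0 to 2 for 96 h over 72 h. Cycs, at 0.94, measured -0.07 with the GC offset, -0.09 with GC and length offsets and -0.04 with the GC offset and replicate block. Ndufs4, at 0.09, measured -0.29 without the 3 libraries.

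In the simulation of TCDD 96 h against DMSO, 13 of 100 changes of 2-fold were recovered, and smaller changes were not simulated.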

Other observations

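The genes Atp5g1, Atp5g2 and Atp5g3 encode the same mature subunit c of the ATP synthase ring and differ in their targeting sequences. In DMSO cells Atp5g3 had the highest level per length (430.2 CPM per kilobase), followed by Atp5g2 (310.4) and Atp5g1 (67.7). In ES cells the order by this measure was the same, at 661.2, 573.7 and 110.7 CPM per kilobase. Of the 3, Atp5g2 passed the test between DMSO and ES cells. Atp5g1 measured 210 and 378 CPM in ES cells and 196 and 164 CPM in DMSO cells, and Atp5g3 measured 337 and 614 CPM in ES cells and 332 and 287 CPM in DMSO cells. The difference between the 3 genes' changes was not tested.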
